A study of Drosophila simulans and Drosophila melanogaster and Drosophila sechellia with 48 samples.

Results

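Cross 77X85 of Drosophila simulans joins 2 isogenic lines, 77 and 85, and its 3 arrays were set against the arrays of the other 9 crosses of the species. The 3 arrays were those whose titles name the cross, out of 30 D. simulans arrays and 48 arrays in all. Each array held RNA of 20 whole adult males, taken 3 days after they left the pupa and reared at 25 C on yeasted cornmeal food under constant light. All 10 crosses were of isogenic lines, and no group was mutant or treated. The paper uses the 3 arrays of a cross as estimates for 1 heterozygous genotype. Elsewhere it says that arrays of a cross do not capture the variation tied to 1 genotype. The design is a round-robin, in which every line enters 2 crosses: line 77 is also in cross 61X77, line 85 is also in cross 85X99, and the other 7 crosses (6X11, 11X36, 36X37, 37X43, 43X61, 99X105 and 105X6) share no line with 77X85. Which line gave the mothers is not given in the sources used here. A difference of cross 77X85 is therefore a difference of 1 cross, and it speaks for no wider set of flies.

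Several of the genes below belong to 3 well known groups. Bomanins are short secreted peptides that the fat body of Drosophila makes after the Toll pathway has sensed fungi or bacteria, and D. melanogaster without them dies of such infections. Imaginal disc growth factors are secreted proteins that resemble chitinases but lack the enzyme's activity, and the fat body and blood cells make them. Cytochrome P450 enzymes oxidize hormones, plant compounds and insecticides, and their transcript levels are known to differ between fly strains.

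Signals are given on the log2 scale after quantile normalization over 29 arrays, so that 1 unit is a 2-fold change of signal. A probe set is a group of short probes on the array for 1 transcript, and 12367 features remained after 1 probe set was kept for each gene. The third array of 37X43 was left out, since its 20 yolk and eggshell markers had a median of 8.91 and a highest value of 15.25. On the 77X85 arrays the median of these female markers was 6.66, 6.87 and 6.68, inside the range of 6.13 to 7.34 on the 26 other arrays. The sex peptide gene SP, made in the male accessory gland, gave 14.19, 14.39 and 13.64 in 77X85 males, against 13.09 to 15.01 in the other crosses (median 14.09). Pairs of 77X85 arrays correlated at 0.876 to 0.929, whereas pairs within the other crosses ranged from 0.776 (in 99X105) to 0.93. Nothing in the labels says that the 3 arrays of a cross came from separate vials, so the p-values measure the spread between arrays.

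Few genes set cross 77X85 apart. At an adjusted p of at most 0.05 (limma, moderated by eBayes, Benjamini-Hochberg over all features), 21 of 12367 features differed between 77X85 and the equal mean of the other 9 crosses, which is 0.17% of those tested. Of these, 6 were higher in 77X85 (0.0485%) and 15 were lower (0.121%), and 20 carry the name of 1 gene. Their differences ran from 0.81 to 2.71 in size, and 18 were of 1 or more. Among all features, 313 were higher (2.53%) and 509 lower (4.12%) at an unadjusted p of at most 0.05. When each of the other 9 crosses was set against its own remaining 9 in the same fit, the number of features past the threshold ran from 1 (in 11X36 and in 85X99) to 364 (in 99X105), with a median of 13. Of these crosses 4 had more calls than 77X85 and 5 had fewer. More lower than higher calls, as in 77X85, were found in 7 of the 9, and at an unadjusted p of at most 0.05 lower features were the more numerous in all 9. The count for 77X85 moved with the estimate of the spread, to 7 when all 16 groups of the series shared it and to 72 when arrays were weighted by their quality.

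A call did not always mean an extreme value. The 3 arrays of 77X85 lay wholly above or wholly below all 26 other arrays for 28 features (0.226% of all), and 11 of the 21 called features were among them. Of the 6 higher features 4 lay above all other arrays (0.0728% of all features) and of the 15 lower ones 7 lay below them (0.154%). In 17 of the 21 the cross had the highest or the lowest mean of all 10 crosses, a position it took in 16.3% of all features. Its mean was the highest for 5 of the 6 higher features (7.63% of all features) and the lowest for 12 of the 15 lower ones (8.64%). The calls were made on these same values, so larger shares among them than among all features were largely built in. The 4 exceptions were BomS4, CG17108, betaTub85D and Cyp6a8. For each of these another cross went as far or farther, as the plot of single arrays shows.

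**Figure D1:**
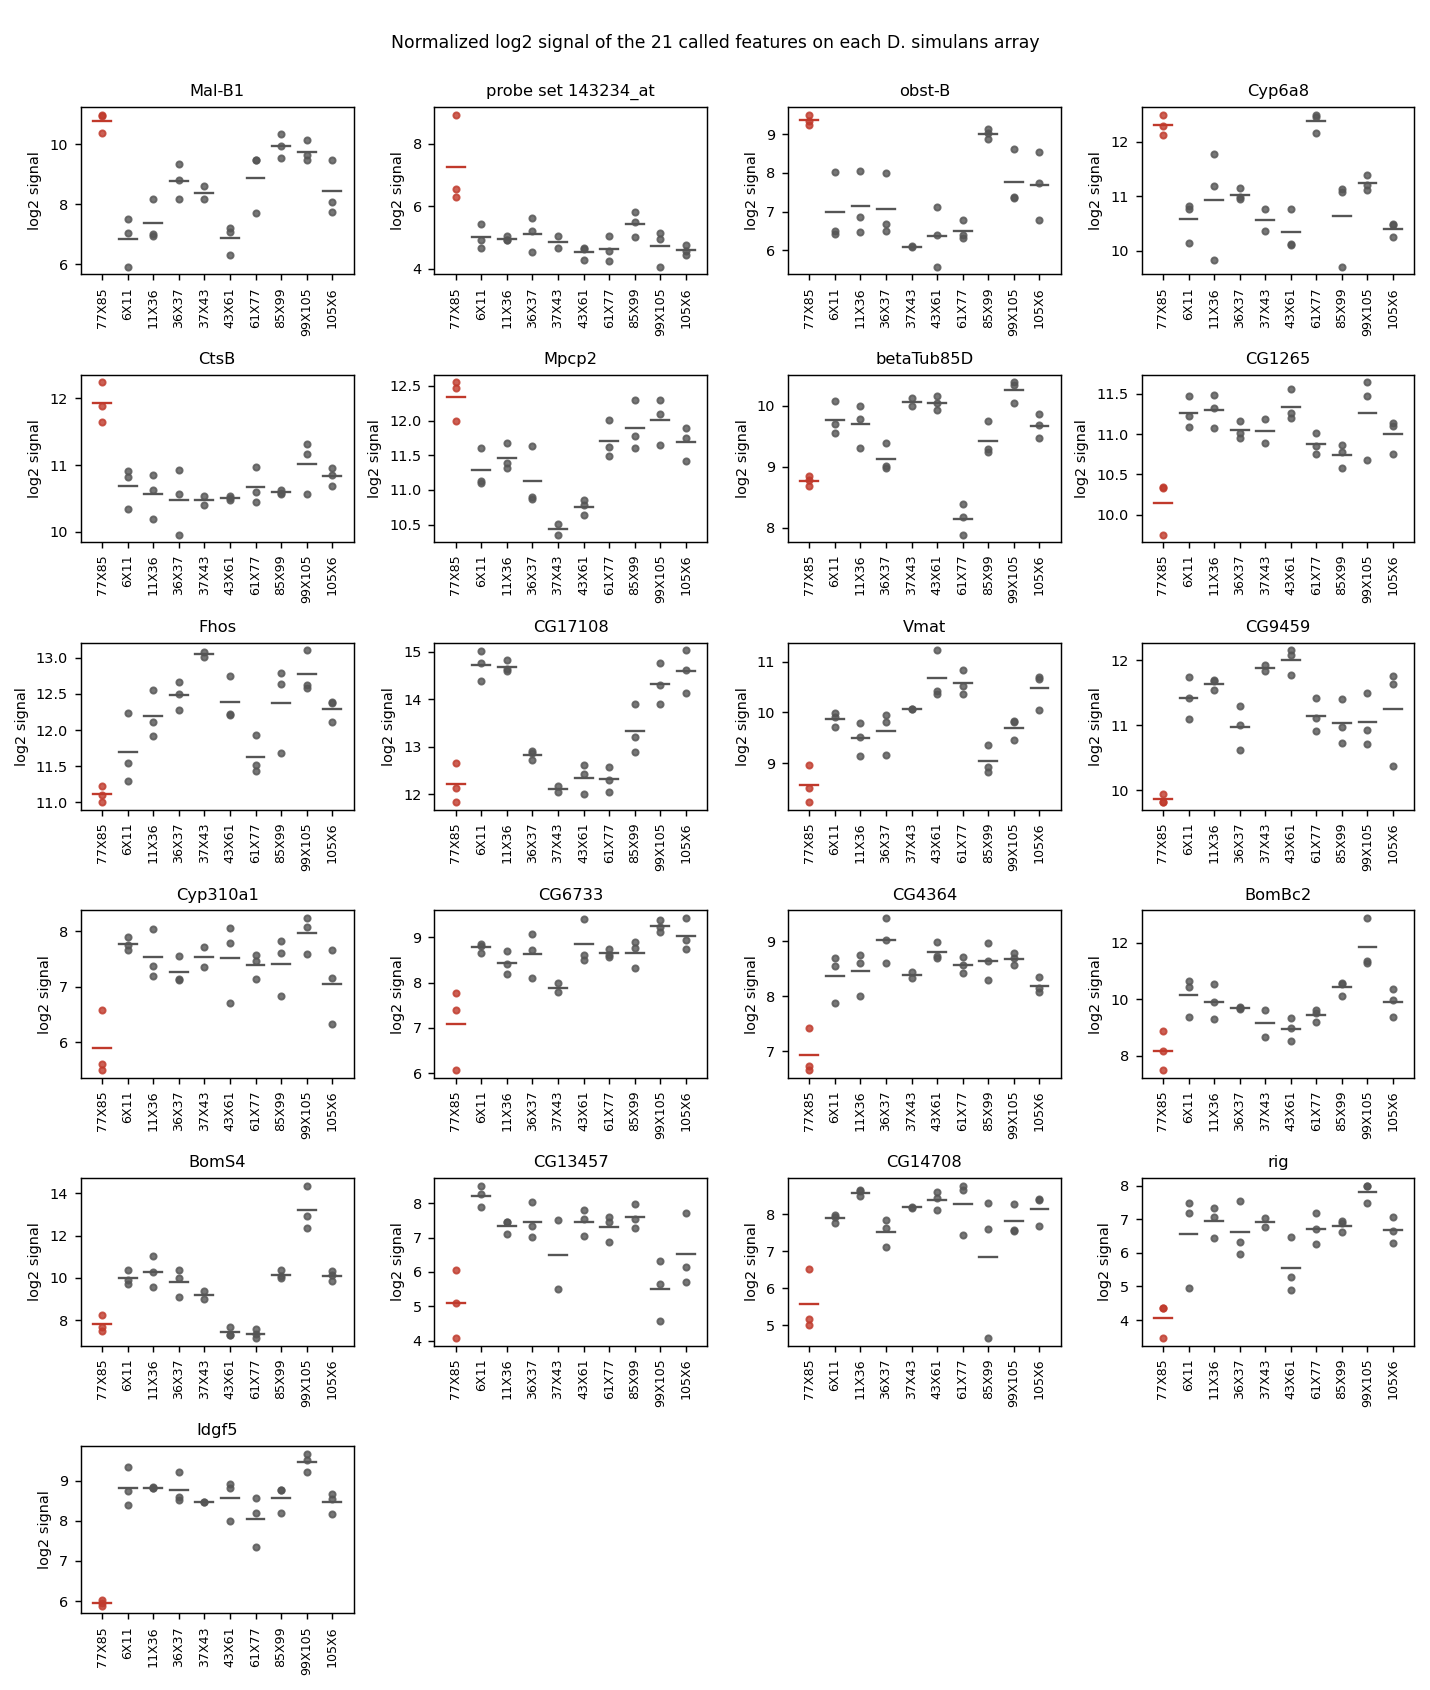
Normalized log2 signal (y axis) of each of the 21 called features on 29 D. simulans arrays, by cross (x axis). Points are arrays, horizontal bars are cross means, and 77X85 is drawn in red at the left of each panel; Idgf5 is at 5.88 to 6.04 in 77X85 and at 7.34 or above in every other cross.

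Idgf5, an imaginal disc growth factor, had the largest difference of all features. Its signal was 5.88, 6.04 and 5.95 in 77X85 males, against 7.34 to 9.67 in the other crosses (median 8.71). The 3 arrays were thus close to each other and below every other array, the nearest of which was in 61X77. The difference was -2.71 ± 0.23 (SE, 95% interval -3.19 to -2.23, adjusted p = 1.08e-06), a 6.54-fold lower signal. In 77X85 20.6% of features had a lower mean than Idgf5, against 67.2% in the other crosses. The fold thus rests on a dim signal in 77X85. In bulk RNA of whole flies, fewer cells of a type and less RNA per cell cannot be told apart.

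The other members of the same family on the array did not share this difference, and they were looked up after the values of Idgf5 had been seen. Idgf1, Idgf2 and Idgf3 differed by 0.13, 0.07 and 0.22 between 77X85 and the other crosses. Idgf4 differed by 0.48 ± 0.22 (adjusted p = 0.697) and Idgf6 by -0.47 ± 0.20 (SE, adjusted p = 0.676), so that none of the 5 passed the threshold. Idgf6 gave 8.74, 9.39 and 10.05 in 77X85 males, against 9.39 to 10.56 in the other crosses.

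The gene CG4364 came next in rank among the lower genes. It gave 7.42, 6.72 and 6.65 in 77X85 males, against 7.87 to 9.43 in the other crosses (median 8.61), with no overlap. The difference was -1.64 ± 0.20 (SE, adjusted p = 3.61e-04), and the other cross means ran from 8.19 to 9.02.

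The gene rig encodes a cofactor of nuclear receptors that takes part in the ecdysone response of D. melanogaster. Its probe set gave 4.36, 4.37 and 3.47 in 77X85 males, against 4.90 to 7.99 in the other crosses (median 6.83). No arrays overlapped, and 43X61 was the next lowest cross. The difference was -2.66 ± 0.40 (SE, adjusted p = 0.00252). The level in 77X85 was dim for this array, since 2.94% of features had a lower mean there, against 31.7% for the level of rig in the other crosses. The other probe sets of rig had means of 2.86 and 4.79 in 77X85, against 3.84 and 4.47 in the other crosses, with differences of -0.99 and 0.32.

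Vmat, the transporter that loads dopamine, serotonin and other monoamines into vesicles, fell in 77X85 males. It gave 8.97, 8.23 and 8.51 in 77X85 males, against 8.83 to 11.22 in the other crosses (median 9.93). The ranges overlapped at the low end, where the 85X99 arrays lay. The difference was -1.37 ± 0.21 (SE, adjusted p = 0.00282). A second, dim probe set of Vmat had means of 5.64 in 77X85 and 5.54 in the other crosses.

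Fhos, a formin that builds actin filaments in muscle and other cells, gave 11.23, 11.00 and 11.10 in 77X85 males. In the other crosses its signal ran from 11.29 to 13.10 (median 12.33), so the arrays did not overlap. The difference was -1.21 ± 0.21 (SE, adjusted p = 0.0121). A second probe set of Fhos, also bright, did not share it, with means of 10.25 in 77X85 and 10.38 in the other crosses. The fall of Fhos was thus seen by 1 of its 2 probe sets.

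CG9459 was bright and tightly measured, at 9.82, 9.94 and 9.81 in 77X85 males, against 10.37 to 12.15 in the other crosses (median 11.42). It fell by 1.52 on the log2 scale (SE 0.23, adjusted p = 0.00252), with no overlap. The call of CG9459 was lost when all 16 groups of the series shared the estimate of the spread (limma, adjusted p = 0.9997). CG1265 was bright as well, at 10.34, 9.76 and 10.34 in 77X85 males, against 10.58 to 11.64 in the other crosses, and its difference was -0.95 ± 0.18 (SE, adjusted p = 0.0185).

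CG6733 gave 7.40, 6.06 and 7.76 in 77X85 males, against 7.80 to 9.43 in the other crosses, and fell by 1.61 (adjusted p = 0.00443). The next 3 genes were dim in 77X85, and each had a spread array or an overlap. Cyp310a1, a cytochrome P450, gave 5.61, 6.58 and 5.50 in 77X85 males, against 6.33 to 8.24 in the other crosses, and fell by 1.60 (adjusted p = 0.0123). CG14708 gave 5.01, 5.17 and 6.52 in 77X85 males, against 4.66 to 8.76 in the other crosses, and the single array at 4.66 was in 85X99. It fell by 2.39 (adjusted p = 0.0192). For CG13457 the 3 arrays of 77X85 were at 6.07, 5.10 and 4.08, against 4.59 to 8.50 in the other crosses, where 99X105 was also low. It fell by 2.02 (adjusted p = 0.0455).

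Among the higher genes, Mal-B1 encodes a maltase, an enzyme that splits sugars such as maltose and sucrose. It gave 10.93, 10.37 and 10.99 in 77X85 males, against 5.92 to 10.34 in the other crosses (median 8.17). All 3 arrays were above all others, but 85X99 and 99X105 came close and the 9 other cross means were widely spread. The difference was 2.41 ± 0.39 (SE, 95% interval 1.60 to 3.21, adjusted p = 0.00443), a 5.31-fold higher signal. Its neighbour in name, Mal-B2, gave 10.05, 9.76 and 9.09 in 77X85 males, against 9.02 to 10.92 in the other crosses. Like all maltases of the Mal-A group that were measured, Mal-B2 did not pass the threshold. Of these Mal-A5 had the smallest adjusted p, with a difference of -0.77 ± 0.20 (SE, adjusted p = 0.194).

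The gene obst-B encodes a secreted chitin-binding protein of the obstructor family, whose members organize the cuticle. Its signal was 9.51, 9.33 and 9.23 in 77X85 males, against 5.58 to 9.14 in the other crosses (median 6.82). The highest of the others were the 85X99 arrays, just below those of 77X85. The difference was 2.18 ± 0.39 (SE, adjusted p = 0.013), a 4.52-fold higher signal. Among the other obstructor genes, looked up afterwards, obst-A, obst-E and obst-H differed by 0.11, 0.76 and 0.14, and obst-F, obst-G and obst-J by -0.48, -1.25 and -0.64. None of these 6 passed the threshold (adjusted p = 0.387 for obst-E, the smallest).

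CtsB encodes cathepsin B, a cysteine protease of lysosomes. It gave 11.89, 11.65 and 12.24 in 77X85 males, against 9.96 to 11.31 in the other crosses (median 10.59). The arrays did not overlap, and the 9 other cross means ran from 10.47 to 11.02. The difference was 1.28 ± 0.19 (SE, adjusted p = 0.00252), a 2.43-fold higher signal. The gene cathD, which encodes the lysosomal aspartic protease cathepsin D, gave 12.60, 12.58 and 12.46 in 77X85 males, against 10.97 to 12.53 in the other crosses. Its difference of 0.68 ± 0.15 (SE) did not pass the threshold (adjusted p = 0.0806).

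Mpcp2, a carrier that brings phosphate into mitochondria, gave 12.47, 12.55 and 11.99 in 77X85 males, against 10.36 to 12.29 in the other crosses. It rose by 0.96 ± 0.19 (SE, adjusted p = 0.0374), and its lowest array overlapped with the highest of 61X77, 85X99 and 99X105. Cyp6a8, a P450 of the family that contains several insecticide resistance genes, gave 12.12, 12.49 and 12.29 in 77X85 males, against 9.71 to 12.49 in the other crosses. It rose by 1.41 ± 0.29 (SE, adjusted p = 0.0428), and 61X77 was as high. The remaining higher feature was probe set 143234_at, to which no gene is assigned here. Its arrays were at 8.93, 6.53 and 6.31 in 77X85 males, against 4.06 to 5.81 in the other crosses, and the difference was 2.39 ± 0.35 (SE, adjusted p = 0.00252). The first array was far above the other 2, with an SD of 1.45 over the 3. Of the genes next in rank among the higher ones, mRpS35, which encodes a protein of the mitochondrial ribosome, differed by 0.77 (adjusted p = 0.0715) and CG6908 by 0.95 (adjusted p = 0.0867).

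**Figure D2:**
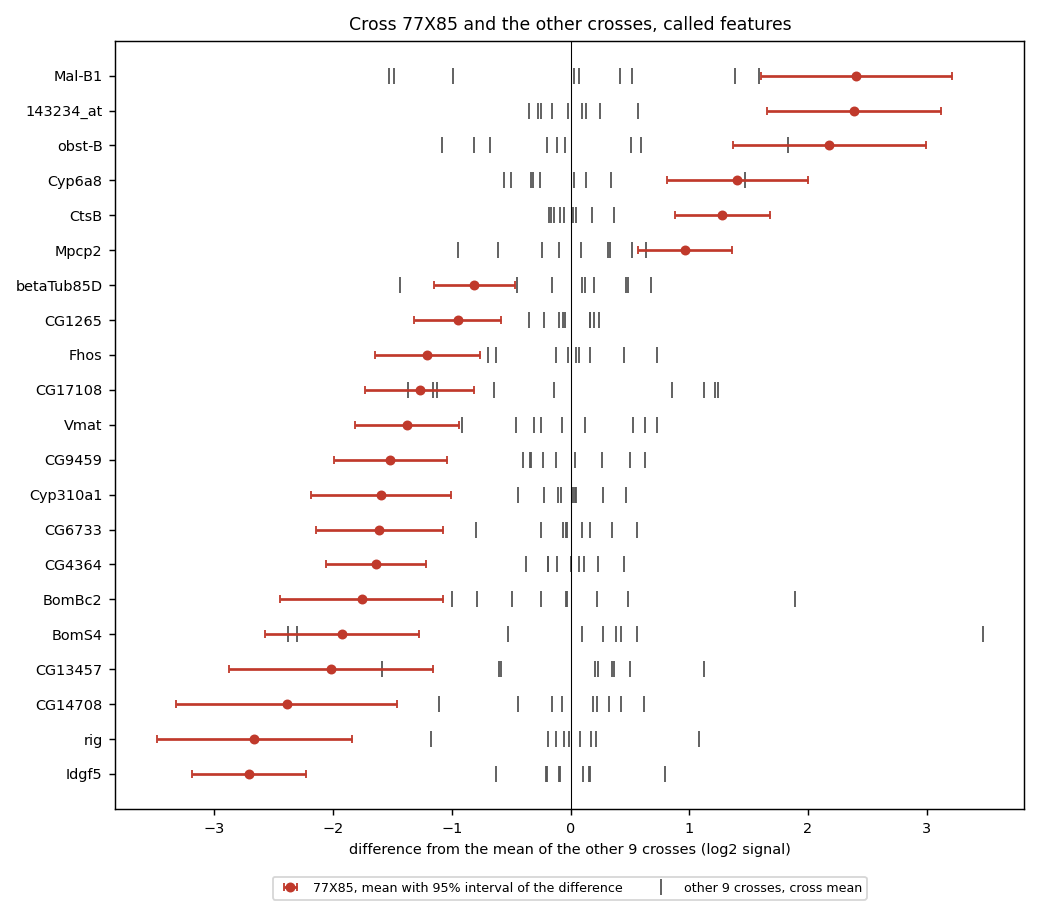
Difference in log2 signal from the mean of the other 9 crosses (x axis) for the 21 called features (y axis). Red points are 77X85 with the 95% interval of the difference and grey ticks are the means of the other 9 crosses; 77X85 lies beyond all ticks for 17 features, and ticks as far out or farther are seen for BomS4, CG17108, betaTub85D and Cyp6a8.

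BomS4 and BomBc2, Bomanins induced by the Toll pathway, fell in 77X85 males. They are short peptides with close relatives in the family, and whether their probe sets tell the relatives apart was not examined. BomS4 gave 7.69, 8.26 and 7.48 in 77X85 males, against 7.17 to 14.35 in the other crosses (median 9.96), and fell by 1.92 ± 0.31 (SE, adjusted p = 0.00443). BomBc2 gave 8.88, 8.16 and 7.50 in 77X85 males, against 8.52 to 12.87 in the other crosses (median 9.71), and fell by 1.76 ± 0.33 (SE, adjusted p = 0.0192). For BomBc2 the cross had the lowest mean of all, whereas for BomS4 the means of 61X77 and 43X61 were lower still.

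Of the list of Bomanins and other Toll-induced peptides, 9 genes were measured. These 2 passed the threshold, both lower in 77X85, against 0.121% of all features, and none of the 9 was higher. All 9 differences were below 0, against 5796 of 12367 over all features. Their median was -1.13, against a median of 0.02 over all features. At an unadjusted p of at most 0.05, 7 of the 9 were lower, against 4.12% of all features. IM33, another peptide of the induced response, gave 10.19, 10.36 and 9.93 in 77X85 males, below the range of 10.63 to 13.94 in the other crosses, but its difference of -1.35 ± 0.37 (SE) did not pass (adjusted p = 0.204). BomS2 had the largest difference of the list, -2.46 ± 0.64 (SE, adjusted p = 0.187), with arrays at 7.04, 6.09 and 3.14 in 77X85 males, against 3.08 to 12.05 in the other crosses. BomT3 and BomBc3 had the smallest differences, -0.21 and -0.31 (adjusted p = 0.955 for each).

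The list did not stand alone at the low end. Its mean signal over the 9 genes was 9.51, 9.47 and 8.97 on the 77X85 arrays, against 9.41 to 13.56 on the other 26 (median 10.50). The highest value was on the third array of 99X105, where BomS4 reached 14.35 and BomBc2 reached 12.87, and the lowest of the other arrays were 2 arrays of 61X77. Without that 99X105 array, 4 of the 9 passed the threshold lower in 77X85, beside 24 called lower among all 12367 features. The additions were IM33 (adjusted p = 0.00135) and BomS5 (adjusted p = 0.012), and the median was -1.07. Without cross 99X105 as a whole, 3 passed, beside 21 called lower among all features, and the median was -0.82.

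Antimicrobial peptides, which kill microbes directly and many of which are driven by the Imd and Toll pathways, gave no call. All 9 that were measured had differences below 0, against 5796 of 12367 over all features. They ran from -1.09 to -0.10 with a median of -0.39, and none reached an unadjusted p of 0.05 in either direction (limma). Against 61X77 alone 8 of the 9 were below 0 (median -0.34), and against 85X99 alone 4 were (median 0.07). AttD, CecB and Def were dim, with means of 5.06, 4.82 and 4.51 in the 7 crosses that share no line with 77X85. Drs, which encodes drosomycin, a standard readout of Toll signalling in D. melanogaster, gave 8.12, 7.59 and 8.42 in 77X85 males, against 6.30 to 10.79 in the other crosses (median 8.08). Among 28 measured genes of immune recognition and signalling none passed the threshold, and the median was 0.13. At an unadjusted p of at most 0.05, 0 were higher and 1 was lower, against 2.53% and 4.12% of all features. The Drs values lay in the middle of the range, with a difference of -0.16 (95% interval -1.03 to 0.72). That interval leaves room for a lower Drs signal in 77X85, and Drs was among the 9 peptides below 0. Whether Toll signalling differed in 77X85 was not tested.

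**Figure D3:**
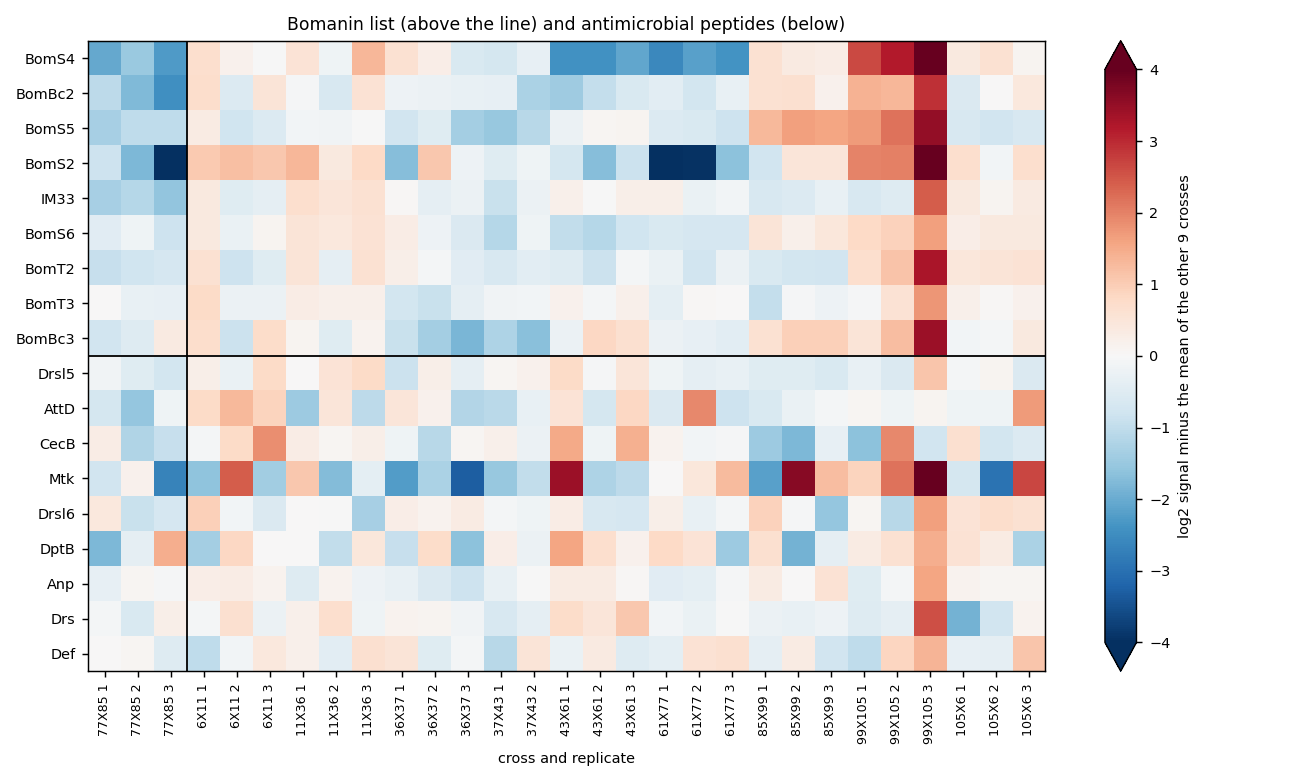
Log2 signal of each array minus the mean of the other 9 crosses (colour; values beyond 4 in either direction take the end colour) for 9 Bomanins and other Toll-induced peptides above the black line and 9 antimicrobial peptides below it, with 77X85 in the first 3 columns. The first columns are blue for most rows above the line, and the third array of 99X105 is red in every one of those rows.

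The crosses that share a line separated the called genes by which of them moved with 77X85. The 7 crosses that share no line served as the common base, so the 3 sets of differences share those arrays and are given side by side as values only. Against these 7, 27 features passed the threshold in 77X85 (0.218%), 10 higher and 17 lower. Of the 21 described above, 20 were among them, CG13457 being the exception (adjusted p = 0.0639). Both comparisons use the 77X85 arrays and these 7 crosses, so this overlap was largely built in.

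Idgf5, CG4364, rig, CtsB, CG6733 and Cyp310a1 differed in 77X85 far more than in either cross sharing a line. Against the 7, Idgf5 differed by -2.81 in 77X85, by -0.73 in 61X77 and by -0.19 in 85X99. CG4364 differed by -1.62 in 77X85, by 0.01 in 61X77 and by 0.08 in 85X99. CtsB differed by 1.28 in 77X85, by 0.02 in 61X77 and by -0.06 in 85X99. For Idgf5 and CG4364 the direct tests of 77X85 against both crosses passed the threshold. The direct difference of Idgf5 was -2.08 ± 0.31 from 61X77 (adjusted p = 0.00675) and -2.62 ± 0.31 from 85X99 (SE, adjusted p = 3.54e-04). That of CG4364 was -1.64 ± 0.27 from 61X77 (adjusted p = 0.0146) and -1.71 ± 0.27 from 85X99 (SE, adjusted p = 0.0111). For rig the direct differences were as large, -2.65 and -2.74, but missed the threshold (adjusted p = 0.0521 and 0.0633), and those of CtsB, 1.26 and 1.33, missed it likewise (adjusted p = 0.0549 and 0.0633). CG6733 and Cyp310a1 did not pass in the direct tests either, with an adjusted p of 0.0858 and 0.261 against 61X77 and of 0.137 and 0.299 against 85X99.

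Cyp6a8, BomS4, CG17108 and betaTub85D moved with 61X77, the cross that shares line 77. Cyp6a8 was 1.58 above the 7 crosses in 77X85, and in 61X77 it was 1.64 above them (adjusted p = 0.0105), with arrays at 12.46, 12.49 and 12.15 there. In 85X99 its difference was -0.09. BomS4 differed by -2.20 from the 7 in 77X85, by -2.66 in 61X77 (adjusted p = 1.26e-04) and by 0.14 in 85X99. CG17108 differed by -1.46 in 77X85, by -1.35 in 61X77 (adjusted p = 0.00659) and by -0.33 in 85X99. The fourth was betaTub85D, the beta tubulin of male germ cells and sperm tails, with differences of -1.04 in 77X85, -1.66 in 61X77 (adjusted p = 2.03e-05) and -0.38 in 85X99.

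Direct tests between 77X85 and 61X77 did not pass for these 4 genes. The difference was -0.07 for Cyp6a8 (95% interval -0.86 to 0.73), 0.46 for BomS4 (-0.41 to 1.32), -0.11 for CG17108 (-0.72 to 0.51) and 0.62 for betaTub85D (0.17 to 1.08, adjusted p = 0.684). The intervals for Cyp6a8 and CG17108 leave room for differences of up to 0.86 and 0.72, which are smaller than the distance of 77X85 from the 7 crosses. For CG17108 and BomS4, 43X61 was low too, with 2 arrays at 12.42 and 12.61 and 1 still lower for CG17108, and with arrays at 7.30, 7.33 and 7.67 for BomS4, although it shares no line with 77X85. For CG17108 37X43, which shares no line either, had the lowest mean of all crosses, 12.10, against 12.20 in 77X85. Low values of these genes were therefore not limited to crosses with line 77.

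Mal-B1, obst-B and Vmat moved with 85X99, the cross that shares line 85, but the values of 85X99 against the 7 did not pass the threshold. For obst-B the difference from the 7 was 2.34 in 77X85, -0.51 in 61X77 and 1.17 to 2.83 in 85X99 (95% interval, adjusted p = 0.0812). Its arrays were at 9.14, 9.03 and 8.87 in 85X99, next to those of 77X85, and at 6.79, 6.31 and 6.40 in 61X77. The direct difference of 77X85 was 2.86 ± 0.52 from 61X77 (SE, adjusted p = 0.0295) and 0.34 from 85X99 (95% interval -0.75 to 1.43). Mal-B1 was 2.71 above the 7 in 77X85, 0.82 in 61X77 and 1.89 in 85X99 (adjusted p = 0.0875). Vmat differed by -1.42 from the 7 in 77X85, by 0.59 in 61X77 and by -0.95 in 85X99 (adjusted p = 0.136). Directly, Vmat was lower in 77X85 than in 61X77 (95% interval of the difference -2.59 to -1.42, adjusted p = 0.0056), and its difference from 85X99 was -0.46 (95% interval -1.05 to 0.12).

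**Figure D4:**
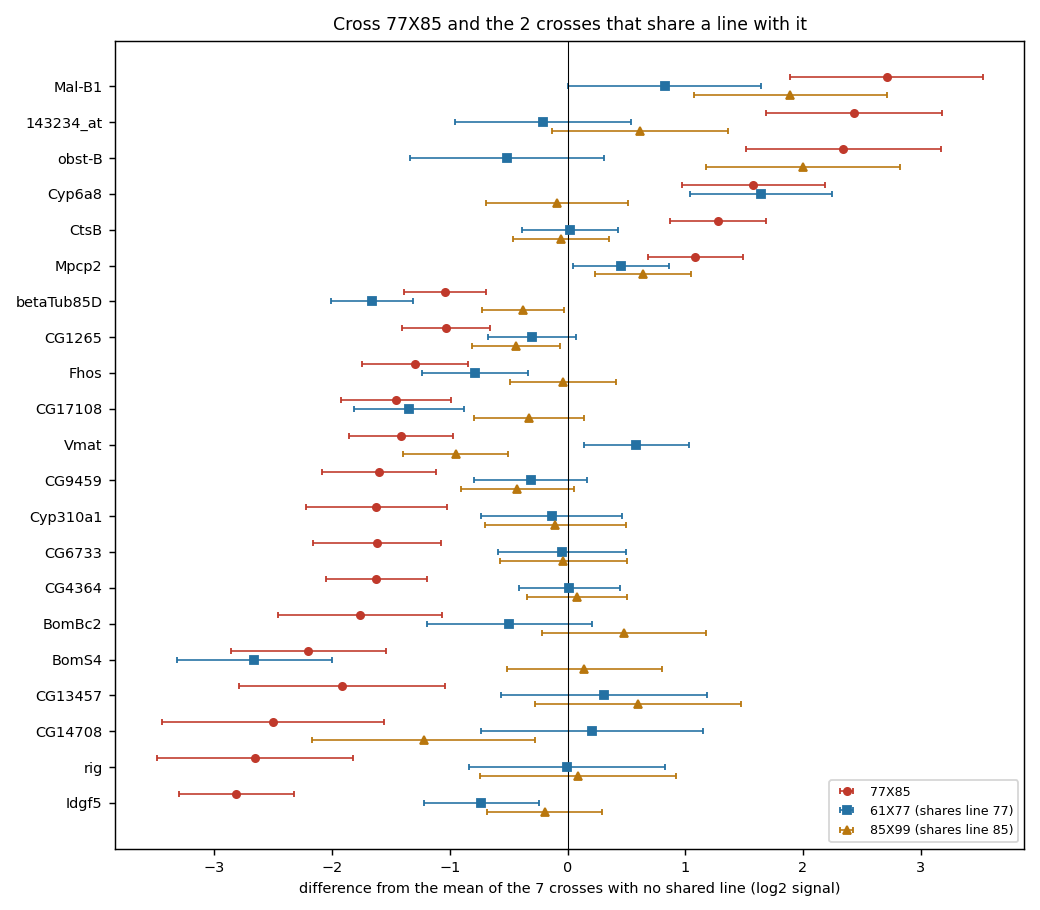
Difference in log2 signal from the mean of the 7 crosses that share no line with 77X85 (x axis) for the 21 called features (y axis), in 77X85 (red circles), 61X77 (blue squares) and 85X99 (orange triangles), with 95% intervals. Blue lies beside red for Cyp6a8, BomS4 and CG17108, orange lies beside red for obst-B, and both lie near 0 for CG4364, rig and CtsB while red does not.

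Across all features, 11 differed between 77X85 and 61X77 (0.0889%), 7 higher and 4 lower in 77X85, and 5 of them were among the 21. With 1 array of 77X85 left out, 4 to 6 passed. The remaining features were led by ATP8A, CG43078, CG7768 and CatB on the higher side and by CG14034 on the lower side. ATP8A, a flippase that moves phospholipids across membranes, gave 10.20, 9.92 and 9.40 in 77X85 males, against 8.33, 8.22 and 8.21 in 61X77 males. The difference was 1.58 ± 0.28 (SE, adjusted p = 0.0245), and against the 7 crosses ATP8A differed by -0.01 in 77X85 and by -1.59 in 61X77 (adjusted p = 6.32e-04). CG14034 gave 9.43, 8.89 and 9.33 in 77X85 males, against 11.19, 11.26 and 11.53 in 61X77 males (difference -2.11 ± 0.36, SE, adjusted p = 0.0185). ATPCL, which makes cytosolic acetyl-CoA for lipid synthesis, was 1.07 ± 0.21 higher in 77X85 (SE, adjusted p = 0.0473).

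Only 4 features differed between 77X85 and 85X99 (0.0323%), all lower in 77X85, and 3 of them were among the 21. The fourth was BomS5, a Bomanin, with arrays at 10.07, 10.39 and 10.39 in 77X85 males, against 12.70, 13.06 and 12.98 in 85X99 males. Its difference was -2.63 ± 0.34 (SE, adjusted p = 7.67e-04), and that of BomS4 was -2.35 ± 0.42 (SE, adjusted p = 0.0391). BomS5 was 1.63 above the 7 crosses in 85X99 (adjusted p = 0.0187) and 1.01 below them in 77X85 (adjusted p = 0.145). Over the 9 peptides of the list, the median difference of 77X85 was -1.15 from 85X99 and -0.10 from 61X77, with 2 and 0 genes past the threshold, and 6 and 2 lower at an unadjusted p of at most 0.05.

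In all, 35 lists of genes by function or tissue were read. Of the 21 called features, 9 stood in at least 1 list and 12 in none. Besides the Bomanins, 6 lists held a called gene. Of 83 P450 genes, 1 rose (Cyp6a8) and 1 fell (Cyp310a1), against 0.0485% and 0.121% of all features. The median difference was 0.21, with 54 above 0, against 6571 of 12367 over all features. At an unadjusted p of at most 0.05, 9 were higher and 3 lower in 77X85, against 2.53% and 4.12% of all features. Those 9 included Cyp4e3 (1.11), Cyp309a1 (0.85), Cyp28d1 (0.76), Cyp6g1 (0.55) and Cyp6d5 (0.54), none of which passed the adjusted threshold. Cyp12c1 was the lowest, at -1.64 ± 0.38 (SE, adjusted p = 0.105). The median signal over the 83 genes was 8.30, 8.32 and 8.31 on the 77X85 arrays. In 61X77 it was 8.32, 8.41 and 8.34, and in 99X105 8.36, 8.34 and 8.43, so the level of the list was not particular to 77X85.

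In the fat body and hemolymph list, 1 of 21 genes fell, Idgf5, and 0 rose, against 0.121% and 0.0485% of all features. At an unadjusted p of at most 0.05, 4 were higher and 2 lower in 77X85, against 2.53% and 4.12% of all features. Lsp2, a storage protein of the larval hemolymph, differed by 1.64 ± 0.44 without passing the threshold (SE, adjusted p = 0.2). For the lists that follow here, too, the shares of all features called were 0.0485% higher and 0.121% lower. Of 19 carbohydrate-digesting enzymes, Mal-B1 rose and 0 fell, with a median of -0.15. Among 12 genes of cuticular hydrocarbon synthesis, CG9459 fell and 0 rose, with a median of 0.04. Of 18 neuronal genes, Vmat fell and 0 rose, the median was 0.02, and 10 were above 0, against 6571 of 12367 over all features. At an unadjusted p of at most 0.05, 4 were lower and 0 higher, against 4.12% and 2.53% of all features. Besides Vmat these were brp, nrv2 and elav, with differences of -1.66, -0.78 and -0.71 that did not pass the adjusted threshold, and the part of nervous tissue in the low Vmat signal was not tested.

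Reproductive lists gave 1 call. Among 27 sperm and spermatid genes, betaTub85D fell and 0 rose, against 0.121% and 0.0485% of all features. The others ranged up to 0.46, with a list median of -0.03. For betaTub85D the arrays were at 8.68, 8.84 and 8.78 in 77X85 males, against 7.88 to 10.38 in the other crosses (median 9.72). Its difference was -0.81 ± 0.16 (SE, adjusted p = 0.0422). The sperm tail gene dj differed by -0.38 (adjusted p = 0.757). None of the 28 accessory gland genes passed (1 higher and 2 lower at an unadjusted p of at most 0.05, against 2.53% and 4.12% of all features; median -0.19). Acp26Ab, a seminal protein, came nearest, with a difference of 1.18 ± 0.27 (SE, adjusted p = 0.104). For the 20 yolk and eggshell genes there was no call and the median was 0.03.

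The 28 lists without a call held 767 different genes, of which 20 were higher (2.61%) and 24 lower (3.13%) in 77X85 at an unadjusted p of at most 0.05 (limma). Over all features these shares were 2.53% and 4.12%. The medians of these lists ran from -0.39 (antimicrobial peptides) to 0.56 (3 metallothioneins). The ribosomal protein, respiratory chain, proteasome and muscle lists had medians of 0.01, 0.03, 0.03 and -0.02. All 7 lysozymes, enzymes of the gut that digest bacterial walls, were above 0, against 6571 of 12367 over all features. Their median was 0.36, but none reached an unadjusted p of 0.05 in either direction. Several lysozyme genes are near-identical in sequence, so their probe sets may not measure them apart. LysD, for example, gave 13.82, 14.12 and 14.30 in 77X85 males, against 11.78 to 15.46 in the other crosses (median 13.66), and lay inside their range.

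How firmly a call stands differed between genes. Idgf5, CG4364 and probe set 143234_at kept an adjusted p of at most 0.05 in every alternative that measured them. Without replicate 1, 2 or 3 of 77X85, 10, 9 and 7 of the 21 remained among 12, 14 and 8 calls, and 17 lost the threshold in at least 1 of these cases. Without replicate 3 of 99X105 there were 34 calls. Without an array of another cross, Cyp6a8, Mpcp2, CG13457 and betaTub85D lost it in 12 to 20 of 26 cases, and the other 17 kept it in all. When all 16 groups of the series shared the estimate of the spread, 14 of the 21 lost it. Among these were CG9459 (limma, adjusted p = 0.9997), CtsB (0.184), Mal-B1, BomS4 and BomBc2. The 7 that kept it there were Idgf5, CG4364, rig, CG6733, Vmat, obst-B and probe set 143234_at.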

How the data were processed

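RNA of whole males was hybridized to Affymetrix arrays with probe sets designed on D. melanogaster. The authors deposited MAS5 intensity values (version not given in the sources used here), which are linear signals per probe set. In the study's methods Loess smoothing came before MAS5, and probes that mismatch D. yakuba were masked. All 14010 probe sets remain in the table, so it was not reduced by that mask, and no source says if its values had been smoothed. Probe sequences were not used here, so the match of probes to the alleles of each line was not examined. Arrays have no read depth, and precision is set by the number of arrays.

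Signals below 1 (15 values) were set to 1, log2 values were taken, and the 29 D. simulans arrays (all but the third of 37X43) were quantile normalized, after array medians of 7.58 to 7.98. The 44 controls were left out. Of the probe sets, 12444 carry 1 gene symbol in the platform annotation, 327 several and 1239 none. Where a gene had several probe sets (1209 genes) only the brightest on average entered the fit, so that 12367 features were tested, 10844 of them named. Cross means were fitted in limma 3.58.1 (R 4.3.3) with lmFit and eBayes (19 residual degrees of freedom among arrays), and each contrast was tested two-sided with Benjamini-Hochberg adjustment over all features at 0.05. The fit was also run on simulated data with independent normal noise, no differences between the other crosses and no outlying arrays. That run therefore does not bear on how firm the calls are. Figures were drawn with matplotlib 3.10.9 (Python 3.11.15).

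The rule for naming genes took up to 12 called genes in each direction, filled to 8 by the smallest p. From each of 35 gene lists it took up to 4 called members or otherwise the 2 brightest. For 61X77 and 85X99 it took up to 4 genes in each direction. Of the brightest members of lists without a call, the text gives only SP and LysD. Genes outside this rule were chosen after their values were seen. Among them are paralogs of called genes, list members next in rank, Drs, CG1265, Fhos, betaTub85D, ATPCL, BomT3 and BomBc3. The cross and the lists were chosen with earlier results of these data known. Chromosome arms were not analysed here. Alternatives covered normalization, the floor, dim features, probe sets, the variance prior, array weights, the arrays and crosses used and the replicate number.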

Additional observations from a re-analysis of the deposited data

How the results depend on the processing

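Over 51 alternatives no called feature changed direction, and 18 of the 21 lost the threshold in at least 1. The count of 21 became 7 when all 16 groups of the series shared 1 estimate of the spread, 33 with a trended and robust prior, 72 with array weights, and 37 without 6X11 and 99X105, an alternative chosen after seeing the data because their replicates correlate least; the cause was not tested. Median centring gave 17, the deposited scale 19, a floor of 16 gave 21, all probe sets 18, leaving out the dimmest features 24, and keeping replicate 3 of 37X43 gave 17. Leaving out 1 array or 1 other cross gave 8 to 34 calls: 12, 14 and 8 without replicate 1, 2 or 3 of 77X85, 34 without replicate 3 of 99X105, and 15 to 30 without 1 other cross. Without 1 array of 77X85 there were 4 to 6 calls against 61X77 (11 with all), 3 against 85X99 (4 with all) and 16 to 20 against the 7 crosses that share no line (27 with all). Leaving out replicate 3 of 77X85 ended the calls of rig (adjusted p = 0.0648) and CtsB (0.0705), and leaving out replicate 2 those of CG6733 (0.0977) and Vmat (0.0702). None of 26 pairs with the same replicate number, which cover the arrays of the other 9 crosses, correlated above 0.1 (-0.04 to 0.05). Of 29 arrays, 15 correlated best with their own number, and a batch behind the numbers was not tested. With the replicate number as a block, 17 features passed against the other 9, 8 against 61X77, 3 against 85X99 and 27 against the 7. Dim genes such as rig and CG13457 carry the least signal over background, which the files do not measure for each array.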
